A study of Mus musculus with 15 samples.

Results

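The genes described here are transcription factors that give a cell its position along the body and its mesenchymal character. They were taken by name as every gene of the Hox clusters and of the Tbx, Meis, Pbx, Meox, Twist, Fox (a to q), Sox, sine oculis, Tcf, Gata, Klf and Nfi families, which gave 53 of the 8446 genes in the table. They are 10 Klf genes, 8 Hox genes, 8 Fox genes, 6 genes of the Meox, Twist and sine oculis families, 5 Tcf genes, 5 Meis and Pbx genes, 4 Nfi genes, 4 Sox genes, 2 Tbx genes and 1 Gata gene. One of the names, Hoxb3os, belongs to an antisense RNA and not to a transcription factor. All 53 symbols were the same in the reference table of gene names. Other members of these families, among them Hoxc9, Hoxc10 and Tcf21, were not analysed here.

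The values come from 15 single cells taken from inguinal white fat. The donors were adult mice of the C57BL/6 background that carried Prrx1-CreERT and Tomato, so that tamoxifen switched on Tomato for good in cells in which the Prrx1-driven Cre was then active. Tamoxifen was given daily on 3 days, at a dose of 2 mg for each 30 g of weight. Tomato+ cells were sorted from collagenase-digested fat and picked singly under a fluorescence microscope, and each became 1 library, numbered 1 to 15. There is 1 group and no control group, and no animal is named, so all cells together count as 1 sample, no test between conditions was possible, and no p-value is given.

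Each value is the deposited expression level of a gene in a cell, per length of transcript, on a log2(FPKM + 1) scale. A gene was called on in a cell at 1 FPKM or more, which is 1 on this scale. The authors' normalization gave every cell the same set of values, so that 4369 genes (51.7%) were on in each cell, and the share of the factors that was on can be read only against that figure. The read depth is unknown. The cells carried the stromal markers of fat progenitors: each of the 12 analysed genes of that list was on in 13 or more cells. The mean over these genes was lowest in cell 13 (5.63, against 6.14 to 9.20 in the other cells). Prrx1 itself was on in 12 cells and below 1 FPKM in cells 3 (0.68), 13 (0.43) and 12 (0.22). Cells 5 and 13 were high in genes of mural cells, the pericytes and smooth muscle of vessel walls (means over the 5 analysed genes of 8.72 and 5.83, and 0.39 to 2.37 elsewhere), and cell 13 was also high in mitosis genes (9.89, at most 1.97 elsewhere). Cells 1, 11 and 14 had the fewest genes above their lowest value (6472 to 6587, against 6801 to 7516 in the other cells).

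Hox proteins are homeodomain factors whose genes lie in clusters, and the order of the genes along a cluster follows the order of their domains along the body axis. They bind DNA together with Pbx and Meis proteins, a second class of homeodomain factors. Adult fibroblasts and fat depots keep part of this embryonic code, and Hoxa5 and Hoxc8 are among the Hox genes known from subcutaneous fat. Klf proteins are zinc-finger factors that bind GC-rich boxes, and several of them advance or restrain fat cell differentiation. Nfi proteins bind a palindrome as dimers and act in the development of many organs.

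The promoters of 4 factors that the results turn on are shown first: Klf4 and Klf6, both on in all 15 cells, Twist1, on in 13, and Hoxa5, on in 5. Each stretch covers the 250 bases before the gene's start in RefSeq (build GRCm38.p6), 5′ to 3′ on the strand of the gene. Capitals mark matches on either strand to 3 motifs: the GC box (GGGCGG), to which Sp and Klf proteins bind, the CCAAT box (CCAAT) and the TATA box (TATAAA). The stretches are chr4:55532476-55532725 on the minus strand, chr13:5861239-5861488 on the plus strand, chr12:33957421-33957670 on the plus strand and chr6:52204588-52204837 on the minus strand.
Klf4: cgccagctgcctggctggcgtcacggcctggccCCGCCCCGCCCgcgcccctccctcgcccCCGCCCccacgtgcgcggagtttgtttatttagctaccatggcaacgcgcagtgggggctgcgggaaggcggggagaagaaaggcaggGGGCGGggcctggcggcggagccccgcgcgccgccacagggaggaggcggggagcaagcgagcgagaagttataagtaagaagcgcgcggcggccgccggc
Klf6: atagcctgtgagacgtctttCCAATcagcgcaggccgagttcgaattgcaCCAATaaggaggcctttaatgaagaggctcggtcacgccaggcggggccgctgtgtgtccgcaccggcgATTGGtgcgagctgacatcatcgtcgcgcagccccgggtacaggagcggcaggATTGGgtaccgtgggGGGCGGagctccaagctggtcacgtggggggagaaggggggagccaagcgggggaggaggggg
Twist1: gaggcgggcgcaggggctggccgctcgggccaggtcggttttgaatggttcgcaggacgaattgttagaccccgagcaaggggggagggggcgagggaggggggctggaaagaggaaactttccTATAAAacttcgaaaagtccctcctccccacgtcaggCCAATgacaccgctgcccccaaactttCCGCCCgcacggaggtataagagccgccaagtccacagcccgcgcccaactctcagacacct
Hoxa5: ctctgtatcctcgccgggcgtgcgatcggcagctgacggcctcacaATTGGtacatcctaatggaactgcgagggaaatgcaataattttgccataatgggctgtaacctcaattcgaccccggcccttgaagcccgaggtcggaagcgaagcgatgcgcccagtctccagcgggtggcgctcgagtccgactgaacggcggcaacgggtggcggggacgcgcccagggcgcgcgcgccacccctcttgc
The Klf4 stretch held 4 GC boxes, of which 2 overlap, and no CCAAT box. The Klf6 stretch held 1 GC box and 4 CCAAT boxes. The Twist1 stretch held 1 match to each of the 3 motifs, and the Hoxa5 stretch held 1 CCAAT box only.

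The 53 factors were on in somewhat fewer cells than genes of the table at large, a difference that was not tested, and the families differed widely. Where reads come from 3′ ends, a value per length of transcript is lower for longer transcripts. The longest transcript of a gene had a median of 4135 bases over the factors and 3264 over all genes. The counts were not redone without the division by length, so its part in this difference and in those between families was not tested. Of the 53 factors, 19 (35.8%) were on in 8 or more of the 15 cells, where 46.8% of all genes were. Nfix, Nfib, Klf6 and Klf4, which are 7.55% of the factors, were on in all 15 cells, against 12.1% of all genes. Only Hoxb2 was on in no cell, which holds for 1.01% of all genes. The other 33 were on in 2 to 7 cells (48.2% of all genes). At 5 FPKM or more, 12 factors were on in 8 or more cells, where 32.6% of all genes were. The median factor was on in 6 cells and the median gene in 7.

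**Figure D1:**
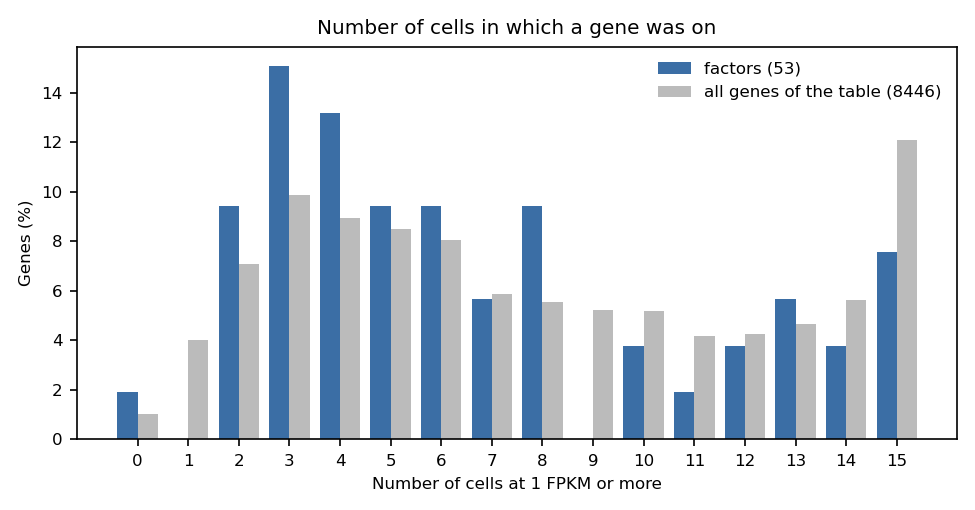
Share of genes (vertical axis, percent) by the number of cells in which the gene was at 1 FPKM or more (horizontal axis), for the 53 factors (blue) and all 8446 genes of the table (grey). The factors are more frequent than all genes at 2 to 6 cells and less frequent at 15 cells (7.55% against 12.1%).

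The split ran along families. All 4 Nfi genes and 8 of 10 Klf genes were on in 8 or more cells, as were 3 of 5 Tcf genes, 1 of 2 Tbx genes, 1 of 6 Meox, Twist and sine oculis genes and 1 of 8 Fox genes. One further factor of the 19 is not reported here by name. None of the 8 Hox genes, of the 4 Sox genes and of the 1 Gata gene was. Of the single values, 91.7% of those of Nfi genes and 64.7% of those of Klf genes stood at 1 FPKM or more, and 21.7% each of those of Hox and Sox genes. The Hox share includes Hoxb3os. Where they were on, Hox genes were not low: the median of their on values was 4.61, against 4.35 over all factors, 5.07 for Klf genes and 4.83 over all genes of the table.

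**Figure D2:**
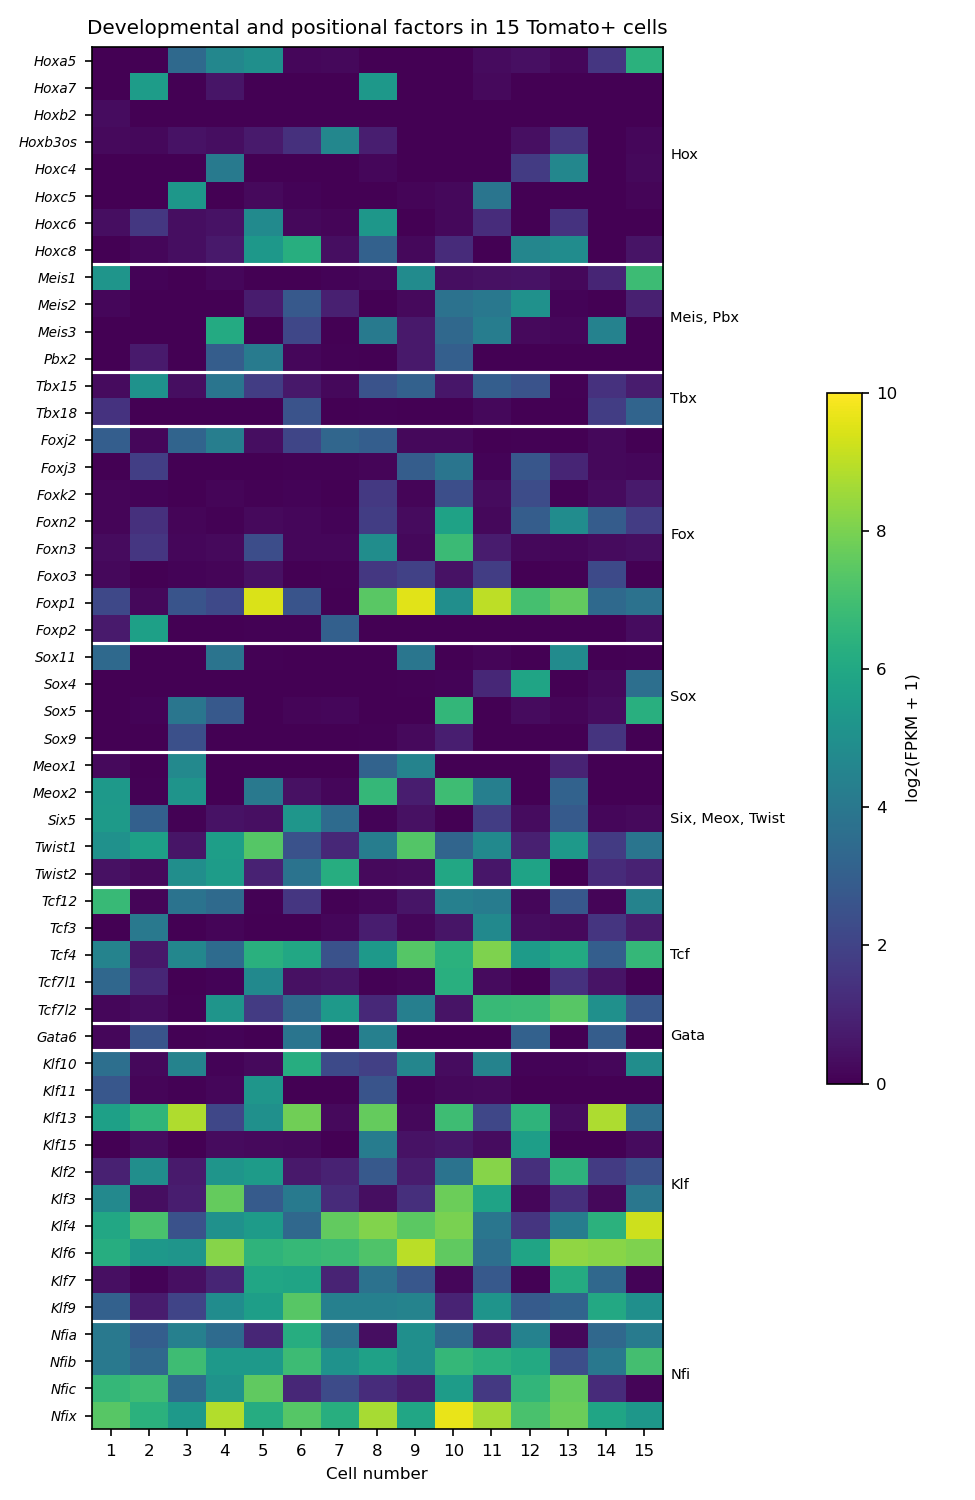
Level of the factors reported by name (rows, grouped by family) in each of the 15 cells (columns), as log2(FPKM + 1) from 0 (dark) to 10 (yellow). The Nfix, Nfib, Klf4 and Klf6 rows are at 1 FPKM or more in every cell. Nfia and Nfic reach it in 12 and 13 cells, and Nfic reaches 5 FPKM in only 8. Each Hox row reaches 1 FPKM in at most 6 cells.

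The set of Hox genes that was on differed between most cells. Hoxc8, which patterns the trunk, was on in 6 of 15 cells (40.0%, exact 95% interval 16.3% to 67.7%), with values of 6.26, 5.35, 4.88, 4.59, 3.10 and 1.22 in cells 6, 5, 13, 12, 8 and 10. It was at most 0.67 in the other 9 cells. Its on values thus stood apart from the off values except in cell 10, which lay near the threshold. Such intervals cover counting error only.

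Hoxa5, a Hox gene of the anterior trunk, was on in 5 cells, with 6.40, 4.98, 4.64, 3.43 and 1.59 in cells 15, 5, 4, 3 and 14. In the other 10 it did not exceed 0.41. Hoxc6 was on in 5 cells, at 5.31 in cell 8 and 4.79 in cell 5, with 1.64, 1.48 and 1.26 in cells 2, 13 and 11. Cell 5 was the 1 cell in which Hoxa5 and Hoxc8 were both on. Hoxc6 and Hoxc8 were both on in 3 cells (5, 8 and 13), 1 or the other in 5 more, and neither in 7. The narrower members had 2 to 3 cells each: Hoxa7 in cells 2 (5.52) and 8 (5.32), Hoxc5 in cells 3 (5.29) and 11 (3.87), and Hoxc4 in cells 13 (4.62), 4 (4.09) and 12 (1.73). Hoxb2 reached at most 0.34. A count of 0 in 15 cells allows a share of up to 20.0% of cells at 1 FPKM or more if 3 counts are taken as the floor, and of up to 21.8% by the exact interval. It does not bound the share of cells with the transcript at lower levels.

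Read cell by cell, 12 of 15 cells (80.0%, exact 95% interval 51.9% to 95.7%) had at least 1 Hox gene on when the antisense RNA Hoxb3os is set aside. None had more than 3, which was reached in cell 5 (Hoxa5, Hoxc6 and Hoxc8), cell 8 (Hoxa7, Hoxc6 and Hoxc8) and cell 13 (Hoxc4, Hoxc6 and Hoxc8). Cells 1, 7 and 9 had none. Cells 14 and 15 had Hoxa5 alone, and cells 6 and 10 had Hoxc8 alone. The 4 Hoxc genes lie together on chromosome 15 between 102967443 and 103036852 in GRCm38 (GENCODE M21 annotation), and no cell had all 4 on.

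Some Hox values may include reads of neighbours. An exon of Hoxc5 overlaps Hoxc10 on the same strand, Hoxa7 overlaps the antisense gene Hoxaas3, and Hoxb3os overlaps Hoxb2 and Hoxb3 on the opposite strand. It is not stated whether the counting used strand, so these values are uncertain. Hoxb3os was on in cells 7 (4.64), 13 (1.53) and 6 (1.37), and in these cells Hoxb2 was at most 0.03.

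The partners of Hox proteins were also spread over cells. Meis1 was on in 4 cells, with 6.85, 5.23, 4.81 and 1.02 in cells 15, 1, 9 and 14, and was at most 0.50 in the other 11. Meis2 was on in 4 other cells (6, 10, 11 and 12), up to 5.07 in cell 12, so that no cell had Meis1 and Meis2 on together. How often genes on in so few cells share none was not computed, so this does not show that they exclude each other. Meis3 was on in 6 cells, highest in cell 4 (6.12), and Pbx2 in 3, highest in cell 5 (4.17). Cells 1 and 9, which had no Hox gene on, had Meis1 on, while cells 2, 3 and 13 had Hox genes on and none of these 4 genes. Each other cell with a Hox gene on had at least 1 of these 4 on. Cell 7 had neither, Hoxb3os set aside.

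Of the T-box genes, Tbx15, a factor of the body wall and of subcutaneous fat, was on in 8 cells (53.3%, exact 95% interval 26.6% to 78.7%). Its values ran from 0.07 in cell 13 over a median of 1.44 to 5.10 in cell 2, with 3.90 in cell 4 and 3.09 in cell 9. Tbx18, known from the sclerotome and from mural cells, was on in 4 cells: 15 (3.22), 6 (2.58), 14 (1.81) and 1 (1.47). It was listed at 0 in cells 5 and 13, the cells high in mural genes.

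Every cell had Twist1 or Twist2 on, and 5 cells had both. Twist1, a basic helix-loop-helix factor of the mesenchyme, was on in 13 cells with a median of 4.24, and was highest in cells 5 (7.38) and 9 (7.32). The 2 cells without it were cells 3 (0.58) and 12 (0.89). There Twist2, which marks dermal fibroblasts, stood at 4.95 and 5.80. Twist2 was on in 7 cells, highest in cell 7 (6.23), where Twist1 was 1.12. The somite factor Meox2 was on in 7 cells, all of them at 5 FPKM or more, from 3.16 in cell 13 to 6.91 in cell 10, and at most 0.82 elsewhere. Meox1 was on in cells 3 (4.71), 9 (4.49) and 8 (3.17). Six5, a sine oculis homeobox factor, was on in 6 cells, up to 5.46 in cell 1.

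The name Tcf covers unrelated proteins. Tcf4, Tcf12 and Tcf3 are E proteins, partners of Twist and of other helix-loop-helix factors, while Tcf7l2 and Tcf7l1 carry the Wnt signal together with beta-catenin. Tcf4 was on in 14 cells (93.3%, exact 95% interval 68.1% to 99.8%), from 0.65 in cell 2 over a median of 5.51 to 8.05 in cell 11. Tcf12 was on in 8 cells, highest in cell 1 (6.73), and each of them also had Tcf4 on, as had every cell but cell 2. Tcf3 was on in 3 cells. Tcf7l2 was on in 11 cells with a median of 3.47, highest in cell 13 (7.41), while cells 1, 2, 3 and 10 did not reach 1 FPKM. Tcf7l1, its relative, was on in 5 cells and highest in cell 10 (6.32), where Tcf7l2 was 0.53. Of 7 analysed partners in the Wnt pathway, 2 were on in 8 or more cells, where 46.8% of all genes were. They were Ctnnb1, which encodes beta-catenin, in all 15 cells (median 5.49) and the co-receptor gene Lrp6 in 8.

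Among the forkhead genes Foxp1 stood alone. It was on in 13 cells, and its values spread from 0.01 in cell 7 and 0.23 in cell 2 over a median of 3.75 to 9.56 in cell 9, 9.44 in cell 5 and 9.02 in cell 11. The other 7 were on in 2 to 7 cells. Foxn2 was on in 7 cells, up to 5.75 in cell 10, and Foxn3 in 4, up to 6.80 in the same cell. Foxp2, the paralogue of Foxp1, was on in cells 2 (5.69) and 7 (3.06), which were the 2 cells without Foxp1. A link between the pair was not tested. Foxo3, which insulin signalling through Akt keeps out of the nucleus, was on in 4 cells and reached at most 2.23. Of the 14 analysed partners and targets of Foxo factors, 6 were on in 8 or more cells, where 46.8% of all genes were. Among them were Txnip in all 15 (median 10.96), Akt1 in 11 and Irs2 in 10. Foxj2 was on in 6 cells, Foxj3 in 5 and Foxk2 in 3, with highest values of 4.28, 3.87 and 2.41.

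The Sox and Gata genes were on in few cells. Sox5, a cofactor of cartilage formation, was on in 4 cells and highest in cells 10 (6.63) and 15 (6.31). Sox9, the main factor of cartilage cells, was on in cells 3 (2.45) and 14 (1.51) and was nowhere at 5 FPKM. Sox4 was highest in cell 12 (5.82) and Sox11 in cell 13 (4.83), and they were on in 3 and 4 cells with none in common. With so few cells each, sharing none does not show that they exclude each other. Gata6 was on in 5 cells, from 2.64 in cell 2 to 4.36 in cell 8, and at most 0.17 in the other 10.

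The Klf genes ranged from factors on in all 15 cells to Klf15, on in 2. Klf6 was on at 5 FPKM or more in all 15 cells, from 3.67 in cell 11 over a median of 6.80 to 8.98 in cell 9. Klf4, a zinc-finger factor that acts early in fat cell differentiation, was on in all 15, from 1.53 in cell 12 over a median of 5.99 to 9.22 in cell 15. Among the 1023 genes on in every cell, 85.7% varied less between cells than Klf4 (SD 2.26) and 41.7% varied less than Klf6 (SD 1.44). Klf9, a target of the glucocorticoid receptor, was on in 14 cells (median 4.37). Klf13 was on in 12 (median 5.70), with values up to 8.82 in cell 3. It was lower in cells 15 (3.54), 4 (2.12) and 11 (2.12), and 3 cells stood at 0.34 or less (7, 9 and 13).

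Klf2 and Klf3, both known to restrain fat cell differentiation, were on in 10 cells each. Klf2 was highest in cell 11 (8.17) and cell 13 (6.45), and Klf3 in cells 10 (7.74) and 4 (7.62). Klf7 and Klf10 were on in 8 cells each, up to 6.17 in cell 13 and 6.22 in cell 6. Klf7 was on in cell 4 by a narrow margin (1.04) and off in cell 7 (0.99). Klf11 was on in cells 5 (5.27), 1 (2.72) and 8 (2.59). Klf15, which rises as fat cells mature, was on in cells 12 (5.59) and 8 (4.20) and at most 0.61 elsewhere. Of these 2 cells, cell 12 had the lowest Klf4 value of all and cell 8 the second highest (8.11).

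All 4 Nfi genes were broad. Nfix had the highest median of all 53 factors (7.11) and never fell below 5.28 (cell 15), with 9.68 in cell 10. Its median lay above that of 92.6% of all genes. Nfib ran from 2.40 in cell 13 over a median of 5.41 to 7.03 in cell 15. Nfia was on in 12 cells (median 3.51), all but cells 8 (0.35), 11 (0.81) and 13 (0.22). Nfic was on in 13 cells (median 3.45), spread from 0.12 in cell 15 to 7.64 in cell 13. Exons of Nfix, Nfia and Nfic overlap genes on the opposite strand, so their values may hold reads of those genes. Nfix, Klf6, Klf4, Klf13 and Tcf4 were the 5 highest factors by median. With the transcript length multiplied back, which is relevant because the library kit reads the 3′ end while FPKM divides by length, 4 of these 5 remained and Nfib took the place of Klf4.

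**Figure D3:**
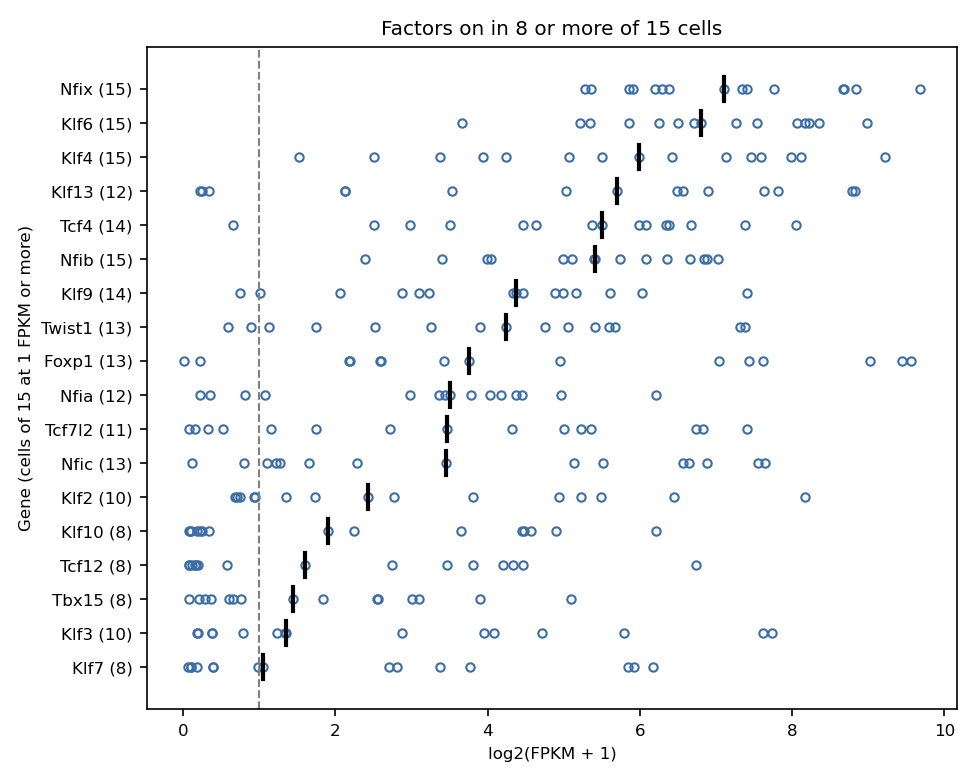
Level of the factors reported by name that were on in 8 or more cells, 1 circle per cell, as log2(FPKM + 1), with the median as a black bar and 1 FPKM as a dashed line. Nfix and Klf6 lie wholly to the right of the line, from 5.28 and 3.67 upwards, whereas Foxp1 spreads from 0.01 to 9.56.

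Per cell, between 17 (cell 7) and 31 (cell 8) of the 53 factors were on, with a median of 24. This is 32.1% to 58.5% of them, where 51.7% of all genes were on in each cell, and the cells other than 8, 10 and 11 lay below that share. The number did not go with the breadth of the library: its Spearman correlation with the number of genes above the cell's lowest value was −0.14 over the 15 cells, which share 1 normalization. At 5 FPKM or more cell 10 had most factors (24) and cell 7 fewest (12). Cell 10 held the highest value of 10 factors (18.9%), among them Nfix, Meox2, Sox5, Foxn2 and Foxn3, while it held the highest value of 10.4% of all genes. Cell 13 held the highest value of 5 factors (9.43%, against 7.45% of all genes), namely Hoxc4, Sox11, Tcf7l2, Klf7 and Nfic. Cell 5 held that of Twist1, Pbx2 and Klf11 (5.66%, against 9.42% of all genes). In cells 5 and 13 the mural genes Rgs5, Higd1b and Kcnj8 stood at 6.53 or more. The other 2 mural genes, Acta2 and Abcc9, were high in cell 5 (10.23 and 5.68) but not in cell 13 (0.45 and 1.68). The part of mural and mitosis genes in these values was not tested. The number of factors on in most cells was 19 with cells 5 and 13. It was also 19 without them, counted as a majority of the other 13 cells. Twist2 (on in 7 of these) then took the place of Klf7 (on in 6). The share of all genes on in most of these 13 cells was not computed.

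The broad factors did not move as 1 block. Over the 171 pairs of the 19 factors, the median Spearman correlation across the 15 cells was 0.03, and over all pairs of the 3949 genes on in 8 or more cells it was 0.00. Single pairs, picked as the extremes of the 171, went far from that. Foxp1 and Tcf4 had the highest correlation (0.80): both were lowest in cells 2 and 7 and high in cells 9 and 11. Without cells 1, 11 and 14 it was 0.74, and without cells 5 and 13 it was 0.81. Klf2 and Nfia had the lowest (−0.84, and −0.86 without cells 1, 11 and 14): Nfia was below 1.09 in cells 5, 8, 11 and 13, in which Klf2 was 2.78 or more. Over all pairs of genes the correlations ran from −0.96 to 1.00, so such values occur elsewhere in the table. The 19 factors include no Hox gene, and the 3 pairs of Hoxa5, Hoxc6 and Hoxc8 had a median correlation of 0.11.

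Klf6 and Klf4 were higher in cells with more immediate early transcripts. Immediate early genes are switched on within minutes by stimulation, the digestion of tissue included, and Klf4 and Klf6 are themselves known to respond quickly. The mean of 16 immediate early genes, none of them a factor described here, ran from 3.04 in cell 11 to 8.71 in cell 9, the cells in which Klf6 was lowest and highest. The Spearman correlation of Klf6 with this mean was 0.65, above that of 99.3% of the genes on in 8 or more cells. It was 0.57 without cell 11 and 0.49 without cells 1, 11 and 14. For Klf4 it was 0.55, and 0.53 without those 3 cells. The other 6 broad Klf genes had values from −0.28 (Klf3) to 0.04 (Klf13). All cells were digested for 1 h at 37 °C, so that the level of Klf6 and Klf4 before digestion cannot be told apart from a rise during it.

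**Figure D4:**
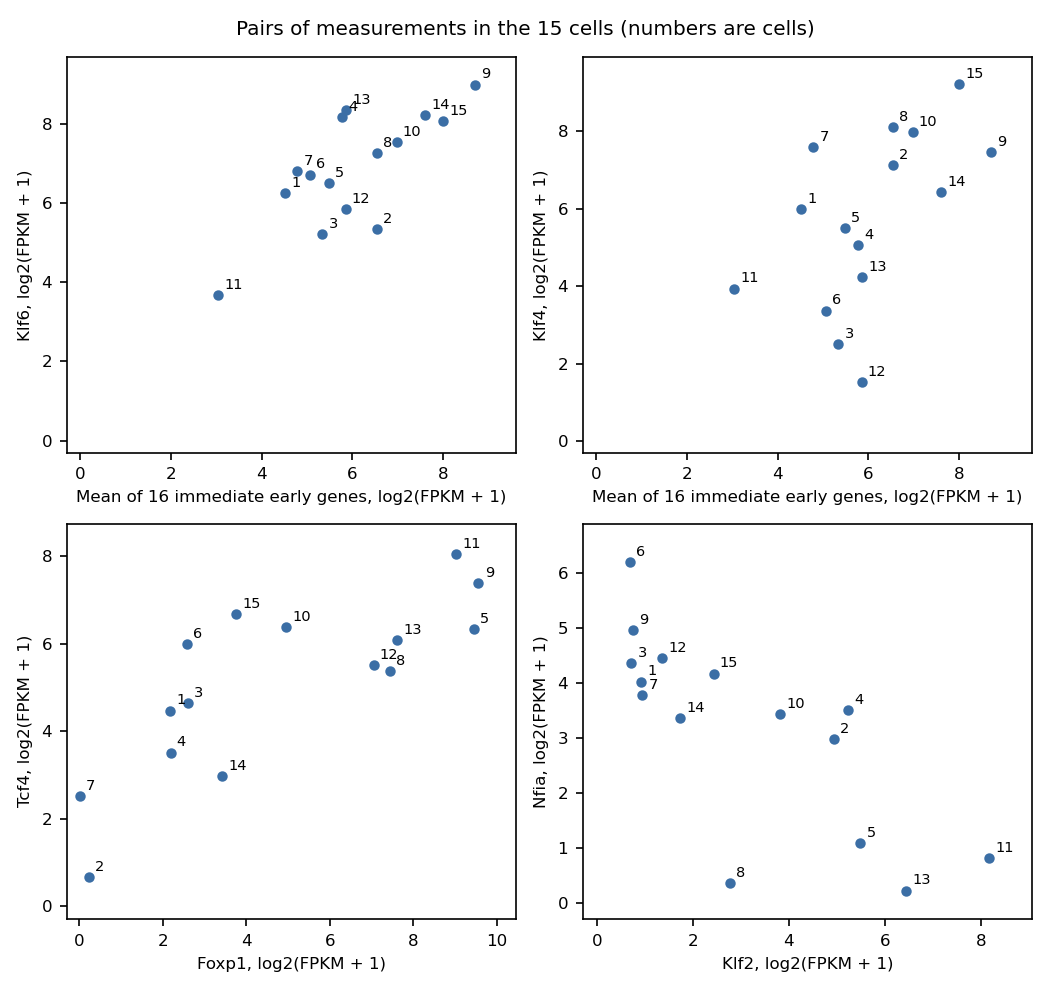
Levels in the 15 cells, each point a cell with its number, all as log2(FPKM + 1). Upper row: Klf6 and Klf4 against the mean of 16 immediate early genes. Lower row: Tcf4 against Foxp1, and Nfia against Klf2. Klf6 is lowest in cell 11 and highest in cell 9, where the immediate early mean is lowest (3.04) and highest (8.71).

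Related gene lists place the factors among others of their kind. Their counts are to be read against all genes, of which 46.8% were on in 8 or more cells and 12.1% in all 15. Of 16 analysed further limb and body-wall patterning factors, 7 were on in 8 or more cells, none was on in all 15, and the median of their medians was 0.40, against 0.31 for the 53 factors and 0.79 for all genes. Prrx1 and its paralogue Prrx2, homeobox factors of the limb mesenchyme, were on in 12 cells each (medians 4.65 and 2.35). Osr1, a zinc-finger factor of connective tissue, was on in 11 cells (median 6.34), and Nr2f2 in 10 (2.84). Of 23 further mesenchymal factors 13 were on in 8 or more cells and 5 in all 15, with a median of medians of 3.25. They included Id3 (median 9.15), Id2 (6.41) and Ebf1 (5.94). Some of the 23 are also among the immediate early genes described above, so their breadth is not only that of mesenchymal factors. Of 14 Polycomb and Trithorax genes, which keep Hox genes silent or active, 5 were on in 8 or more cells, led by Eed in 14 (median 3.46) and Rnf2 in 11 (1.92). Of the methyltransferase genes of Polycomb, Ezh1 was on in 4 cells and Ezh2 in 2. Of 10 genes of retinoid handling, a pathway that sets Hox domains in the embryo, 3 were on in 8 or more cells, among them Aldh1a1 in 14 (median 5.11) and Dhrs3 in 12 (6.74).

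Promoter windows of 300 bases, from 250 before to 50 after a transcript start, were found in RefSeq for 38 of the 53 factors. These starts are not always the gene start in GENCODE M21. The Nfia window begins at 97581693 and the gene at 97772734, and no window of Nfix or Nfic covers its gene's start. The Hoxc4 window, from 103034145, lies inside a gene that starts at 103018934. The family values thus describe these windows, not always the promoter at the gene start. The 38 factors had a median G + C content of 62.3%, and 6566 genes of the table had one of 61.0%. The 14 factors on in 8 or more cells had a median of 63.0% and the 24 others one of 61.7%, so that the medians of broad and narrow factors lay close together. Between families the windows differed more: the 9 Klf genes had a median of 72.0%, the 4 genes of the Hox clusters 60.5% and the 3 Nfi genes 51.0%. A GC box was found in the windows of 8 of 9 Klf genes, all but Klf9, and in those of 1 of 4 genes of the Hox clusters, Hoxb3os included (Hoxc4). It was present in 64.1% of the windows of genes of the table and in 35.7% of all promoter windows of that length. A CCAAT box was found in 45.7% of the windows of the factors, 37.5% of those of genes of the table and 37.4% of all promoter windows. The composite site of Pbx and Hox (TGATTNAT) was found in none of the 46 windows of the factors. It was found in 1.37% of the windows of genes of the table and in 3.22% of all promoter windows. The full Nfi palindrome, searched by both half-sites at their fixed distance, was also in none of the 46. It was found in 0.0236% of the windows of genes of the table and in 0.0365% of all promoter windows. Whether the factors differ from genes of the table was not tested. A match to letters is no evidence of binding, and no match says only that the letters are not in this window.

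**Figure D5:**
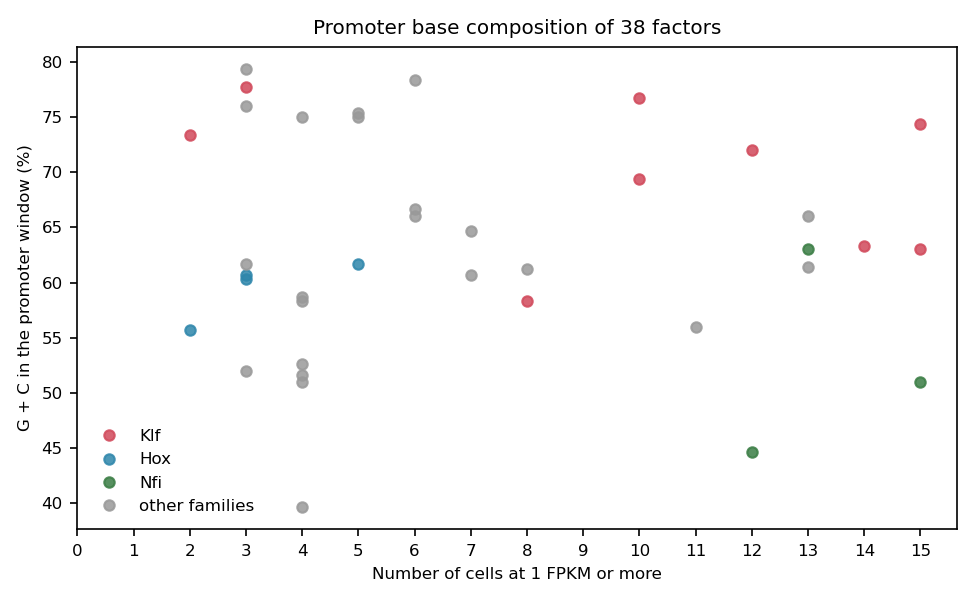
G + C content of the promoter window (vertical axis, percent, mean over a gene's windows) against the number of cells in which the factor was on (horizontal axis), for the 38 factors with a window. Klf genes (red) lie between 58.3% and 77.7%, and 3 Nfi genes (green), each on in 12 or more cells, between 44.7% and 63.0%. None of the Nfi windows covers the gene start in GENCODE M21.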

How the data were processed

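Libraries of single Tomato+ cells were made with the SMART-Seq v4 3′ DE chemistry followed by Nextera XT, per the labels' protocols. TopHat2 and Cufflinks and the build GRCm38 are named per the submitters' processing notes, without versions or settings. The authors deposited 1 table of 8446 genes and 15 cells. It is named FPKM, but the deposited values are on a log scale, read as log2(FPKM + 1) from their range, and, from the values, quantile-normalized: sorted values agree between cells to within 0.0354 above 0.2. The base of the logarithm is inferred. A column belongs to the cell whose number it shares, and 18 unnamed columns were empty.

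A gene was on at 1 FPKM. Alternatives were 5 FPKM, any value above the cell's lowest, at least 1% of the gene's highest value, a common total, and subsets of cells or genes. Intervals of shares are Clopper-Pearson 95% intervals. Correlations are Spearman, without p-values. Named were factors on in 8 or more cells, then those reaching 5 FPKM in 2 or more cells or standing highest in their family, and at most 4 genes of each related list; a few others and single cells were added after their values were seen. Some genes that enter the counts are not reported here by name. The factors and lists were chosen with earlier results of these data known. Markers of mesothelial, epithelial and skeletal muscle cells were not analysed here. Of other cell types, the endothelial list had 2 genes, the Schwann list 2 and the immune list 1, of which Esam, Mbp and Csf1r were on in 7, 13 and 4 cells. Of 14 adipocyte differentiation genes 8 were on in 8 or more cells, and of 14 housekeeping genes 13, where 46.8% of all genes were. Coordinates are from GENCODE M21 (GRCm38). Python 3.11.15, numpy 2.4.6, pandas 2.3.3, scipy 1.17.1 and matplotlib 3.10.9 were used, and the counting and correlation steps were tested on simulated data.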

Additional observations from a re-analysis of the deposited data

How the results depend on the processing

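At 5 FPKM, 12 factors were on in most cells, 2 in all cells and 4 in none, in place of 19, 4 and 1. Counting any value above the cell's lowest gave 45 factors on in most cells, 21 in all and 0 in none, a median of 42 factors per cell and 5 Hox genes on in most cells, but by that rule 90.5% of all genes were on in 8 or more cells. No Hox gene was on in most cells under the other settings. Hoxb2, the gene on in no cell, drops out with genes on in fewer than 2 cells (0 left) and with genes whose exons overlap another gene (0 left), the last setting having been chosen after seeing the data. Without cells 1, 11 and 14, 14 factors were on in most of the other 12 cells. The median correlation between factors stayed between 0.02 and 0.09 in the 4 alternatives run. The correlation of Hox genes could not be computed without cells 1, 11 and 14 or without cells 5 and 13, since fewer than 2 Hox genes were then on in 5 cells. No paired analysis was possible because there is 1 group. Read depth is unknown. Tbp, which every cell uses, was on in 3 cells. Low values of a factor therefore do not show absence.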
